A study of Mus musculus with 9 samples.

Results

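Complex I, the NADH:ubiquinone oxidoreductase of the inner mitochondrial membrane, was followed through its nuclear-encoded subunits in nuclear RNA from mouse hippocampal pyramidal cells. The members were all genes whose symbol starts with Nduf, goes on with a, b, c, s or v, and ends in digits, which took 37 of the 31052 gene columns of the deposited table. Of these, 7 are core subunits and 30 are accessory subunits by the family name. The rule reads the symbols alone and no measured value.

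Complex I takes electrons from NADH and hands them to ubiquinone while it pumps protons across the membrane, and it is one of the main entry points of electrons in the neuronal respiratory chain. Its matrix arm binds NADH on a flavin (the N module) and passes electrons along iron-sulfur clusters to the ubiquinone site (the Q module). Its membrane arm holds the proton pumps, whose core subunits are encoded in mitochondrial DNA. Accessory subunits surround this core and are needed for its assembly or stability. The nuclear transcripts counted here are made, and in part still being processed, before the proteins are built in the cytoplasm, so RNA in nuclei is not a measure of the enzyme.

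The 9 libraries came from hippocampal pyramidal cells of mice with the genotype label WT. The study tagged nuclei with light after the activity of the cells had been imaged in vivo, and 5 libraries held place cells, which fire at particular locations, and 4 held silent cells. Both groups thus share the tissue, the labelled cell type and genotype, the tagging and the SMART-Seq mRNA LP library chemistry, which amplifies polyadenylated RNA from small inputs. The labels used here give no age and no number of nuclei per library. Each library title carries a mouse designation of its own, but no label states that each library was a separate animal. The p-values thus measure only the spread between these libraries.

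The libraries differed in ways that their labels do not name. The smallest library held 13.99 and the largest 22.3 recovered reads in units of 1000000, and between 14176 (silent replicate 1) and 20990 (place replicate 2) genes were detected. Genes detected averaged 18603 ± 1936 in place and 16091 ± 1606 in silent libraries (SD), a difference with an exact two-sided permutation p of 0.0952 over 126 arrangements (0.286 after Benjamini-Hochberg adjustment over 3 library measures, smallest p possible 0.00794). The 10 pyramidal neuron markers summed to 3652 to 4974 RPM (reads per 1000000 of the scaled depth of the library) and were abundant in all 9 libraries. The oligodendrocyte markers (10 of 11 with recovered reads) summed to 1464, 2033 and 3739 RPM in place replicates 1, 2 and 3 and to 122 to 589 RPM in the other 6 libraries. The astrocyte markers (7 of 8 with recovered reads) summed to 2949 RPM in place replicate 3 and to 189 to 586 RPM elsewhere. The 8 microglia markers summed to 252 and 245 RPM in place replicates 2 and 5 and to 306 RPM in silent replicate 4. Elsewhere they summed to 8.55 to 47.8 RPM. CA3 pyramidal markers (5 of 6) summed to 26.6 to 109 RPM in place and 13.0 to 34.3 RPM in silent libraries. Interneuron markers (6 of 8) summed to 27.4 to 228 RPM in place and 66.5 to 198 RPM in silent libraries. The 6 dentate granule markers summed to 12.0 to 242 RPM and 34.4 to 101 RPM. The 2 of 6 vascular markers with recovered reads summed to at most 2.55 RPM. The Y-linked Eif2s3y stood at 346 to 786 RPM in place replicate 1 and all 4 silent libraries and at 0 in place replicates 2 to 5. The X-inactivation transcript Xist stood at 768 to 1425 RPM in place replicates 2 to 5, at 319 RPM in silent replicate 1, which also held Eif2s3y, and at most 2.89 RPM in the others. Place replicate 1 was thus the only library in which the Y-linked transcripts did not follow the activity class.

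Transcription of many respiratory genes is known to involve the factors NRF1, GABP (an ETS-family factor) and YY1, and regulators of this kind are described with the other genes of the pathway below. RefSeq promoters (build GRCm38.p6, 250 bases before to 50 bases after the start) were held for 33 of the 37 members. They were searched on both strands for 8 letter patterns, after longer and shorter forms of some of them had been looked at. The NRF1 pattern GCGCANGCG was held by 8 of the 33 members (24.2%) and by 6.25% of all 32851 promoters. The ETS pattern CCGGAAG was held by 4 members (12.1%) and 8.86% of promoters, and its longer form CCGGAAGT by 1 member (3.03%) and 3.89%. The YY1 pattern AANATGGCG, whose letters include those of a start codon, was held by 7 members (21.2%) and 2.38% of promoters. The other 4 patterns were an SP1 box (GGGGCGGGG), a TATA box (TATAAA), a CRE (TGACGTCA) and a CCAAT box (CCAAT). The SP1 box was held by 5 members (15.2%) and 11.4% of promoters, and the TATA box by 4 members (12.1%) and 13.6%. The CRE was held by 3 members (9.09%) and 1.79% of promoters, and the CCAAT box by 10 members (30.3%) and 37.4%. Members were counted by gene, with a match in any promoter held for it, whereas the share of all promoters counts each promoter. The shares were not tested, and a match is only a run of letters, not a site shown to be bound.

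The 120 bases before the start are shown for 4 members: Ndufa4, which had the highest level per length; Ndufa11, one of the accessory members lower on average in place libraries; Ndufs6, which was nearly absent from 2 libraries; and Ndufs3, a core member. They were picked after the values were seen, to show the NRF1 and ETS patterns and a promoter with neither. Capitals mark the NRF1 pattern in Ndufa11 (overlapping matches on both strands) and, on the opposite strand, in Ndufs6, and the ETS pattern in Ndufs3. All are written 5′ to 3′ on the strand of the gene.
Ndufa4 (chr6:11907451-11907570, minus strand): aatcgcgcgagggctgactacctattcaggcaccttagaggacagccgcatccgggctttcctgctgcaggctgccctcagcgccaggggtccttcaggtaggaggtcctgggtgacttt
Ndufa11 (chr17:56717642-56717761, plus strand): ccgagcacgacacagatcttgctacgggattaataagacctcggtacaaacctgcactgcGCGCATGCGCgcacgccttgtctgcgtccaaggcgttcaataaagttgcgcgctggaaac
Ndufs6 (chr13:73328483-73328602, minus strand): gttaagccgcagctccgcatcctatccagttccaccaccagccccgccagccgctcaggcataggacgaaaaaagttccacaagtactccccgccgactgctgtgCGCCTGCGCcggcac
Ndufs3 (chr2:90904722-90904841, minus strand): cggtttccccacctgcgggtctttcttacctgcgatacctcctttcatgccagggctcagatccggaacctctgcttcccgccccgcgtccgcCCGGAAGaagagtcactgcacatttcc

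All 37 members were present in these nuclei, and no member passed the test between place and silent libraries. Most members had lower average values in place libraries, by modest amounts and with overlapping groups. The log2 fold, place minus silent, was negative for 28 of the 37 members (75.7%), with a median of -0.27, whereas 6102 of the 15232 genes tested (40.1%) were negative and their median was 0.22. The summed level of the members was 2341 ± 308 RPM (SD, n = 5) in place and 2754 ± 253 RPM (SD, n = 4) in silent libraries. It stood at 2288, 1872, 2586, 2649 and 2309 RPM in place replicates 1 to 5 and at 2727, 2569, 2601 and 3120 RPM in silent replicates 1 to 4. Place replicates 3 and 4 lay within the range of the silent libraries, and the other 3 place libraries lay below it. In such bulk libraries, fewer cells of a type and less RNA per cell cannot be told apart.

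**Figure D1:**
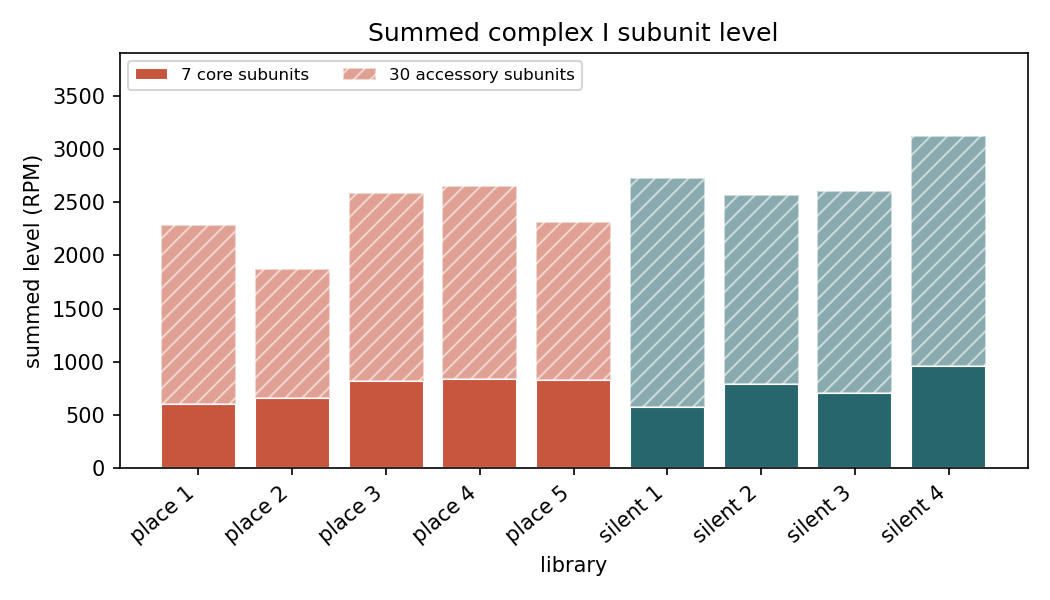
Stacked bars give the summed level (RPM) of the 7 core subunits (solid) and the 30 accessory subunits (hatched) in each library, place in red and silent in blue. The totals run from 1872 RPM in place replicate 2 to 3120 RPM in silent replicate 4, and the core sums of the groups overlap from 606 to 843 RPM.

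By limma with Benjamini-Hochberg adjustment over all 15232 genes, 0 members and 0% of all genes passed an adjusted p of 0.05, and the smallest adjusted p of a member was 0.861. At an unadjusted p of 0.05, 1 member was lower (1.14% of all genes were) and 1 was higher (3.86% of all genes were). With limma's voom on recovered reads, 0 members and 4 of 15228 genes passed, and 1 member had an unadjusted p under 0.05. The groups overlapped in all 37 members, while 1.87% of all genes tested had groups that did not overlap. The count of negative members was lowest in 2 further settings. Without place replicates 1, 2 and 3, the 3 highest in oligodendrocyte markers, 21 of 37 members were negative with a median of -0.03 (all genes 0.39). With Y-linked transcripts as a covariate, 20 were negative with a median of -0.09 (all genes 0.15). That covariate had 1 value in place replicate 1 and all silent libraries and another in place replicates 2 to 5. The difference in this setting thus sets place replicate 1 alone against the silent libraries and is no adjusted comparison of the groups. Set against the median of all genes, the median of the members differed by -0.49 with all libraries and no covariate. It differed by -0.42 and -0.24 in these 2 settings, which were added after the data were seen. In a planned setting, genes detected as a covariate, 26 members and 51.5% of all genes were negative. The medians there were -0.27 for the members and -0.037 for all genes, a difference of -0.23. The part of oligodendrocyte RNA, of sex or of genes detected in the difference between members and all genes was not tested.

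**Figure D2:**
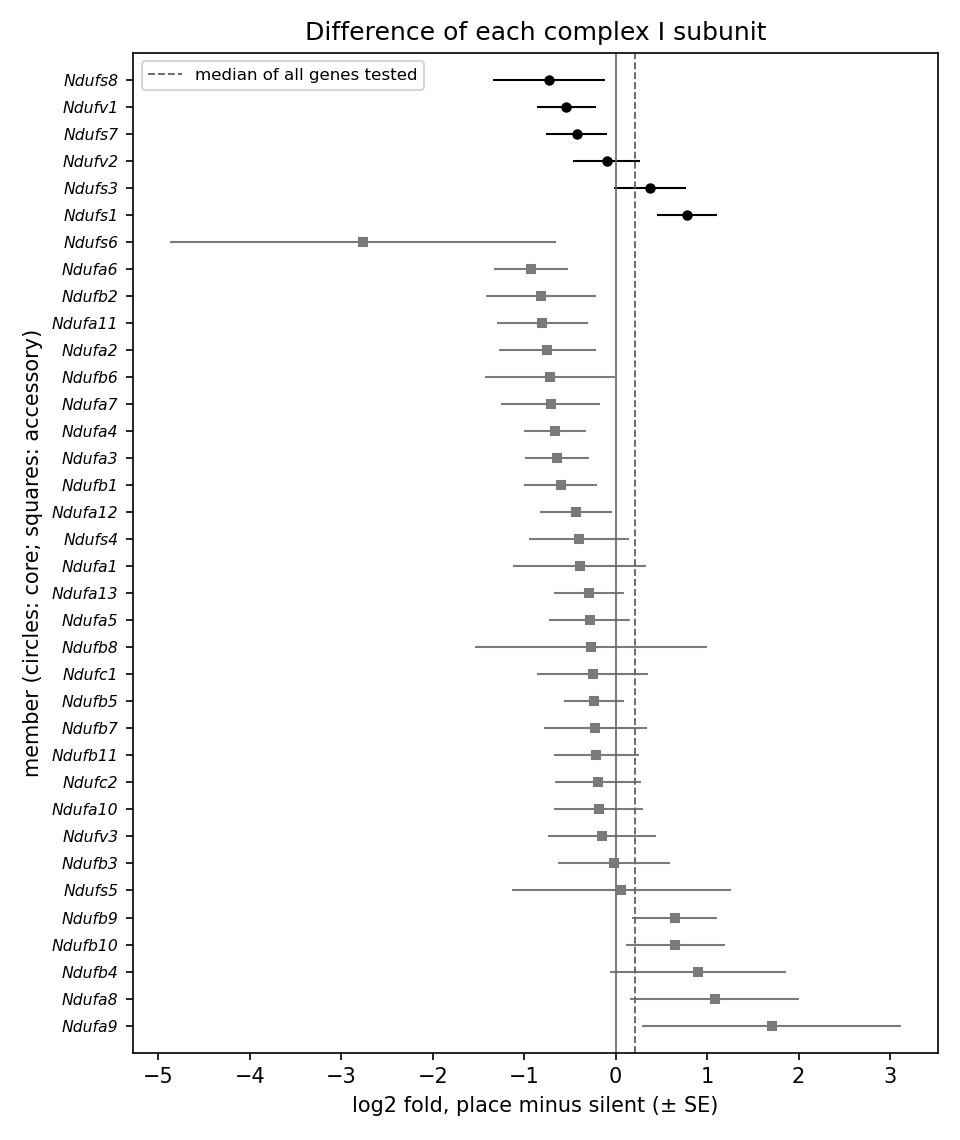
Points give the log2 fold, place minus silent, of 36 members with its standard error (bars), core subunits as circles at the top and accessory subunits as squares. 28 of the 36 points lie left of 0 (solid line), and the dashed line is the median of all genes tested, 0.22.

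Core subunits differed in direction, and their summed level was close in the 2 groups. Of the 7, 4 were negative and 3 positive with a median log2 fold of -0.10, against 24 negative and 6 positive with a median of -0.28 for the 30 accessory members. The core sum was 753 ± 111 RPM in place (SD, n = 5) and 763 ± 163 RPM in silent libraries (SD, n = 4), and the accessory sum 1588 ± 246 RPM and 1991 ± 192 RPM. Core subunits held 26.5% to 36.1% of the member RPM in place libraries and 21.2% to 31.0% in silent libraries. The ranges overlap. Without Ndufs1, the core sum was 540 ± 84.9 RPM in place and 633 ± 113 RPM in silent libraries (SD). Compared per kb of transcript, core members had a median of 66.2 RPM per kb over all 9 libraries and the 29 accessory members with a length a median of 54.97. The lowest core member named here was Ndufs8 at 37.3 RPM per kb, and accessory members ranged from 3.69 (Ndufb8) to 288 (Ndufa4). Core members varied less between libraries, with a median coefficient of variation over the 9 libraries of 0.305 against 0.501 for accessory members. Neither comparison was tested, since members are not replicates.

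**Figure D3:**
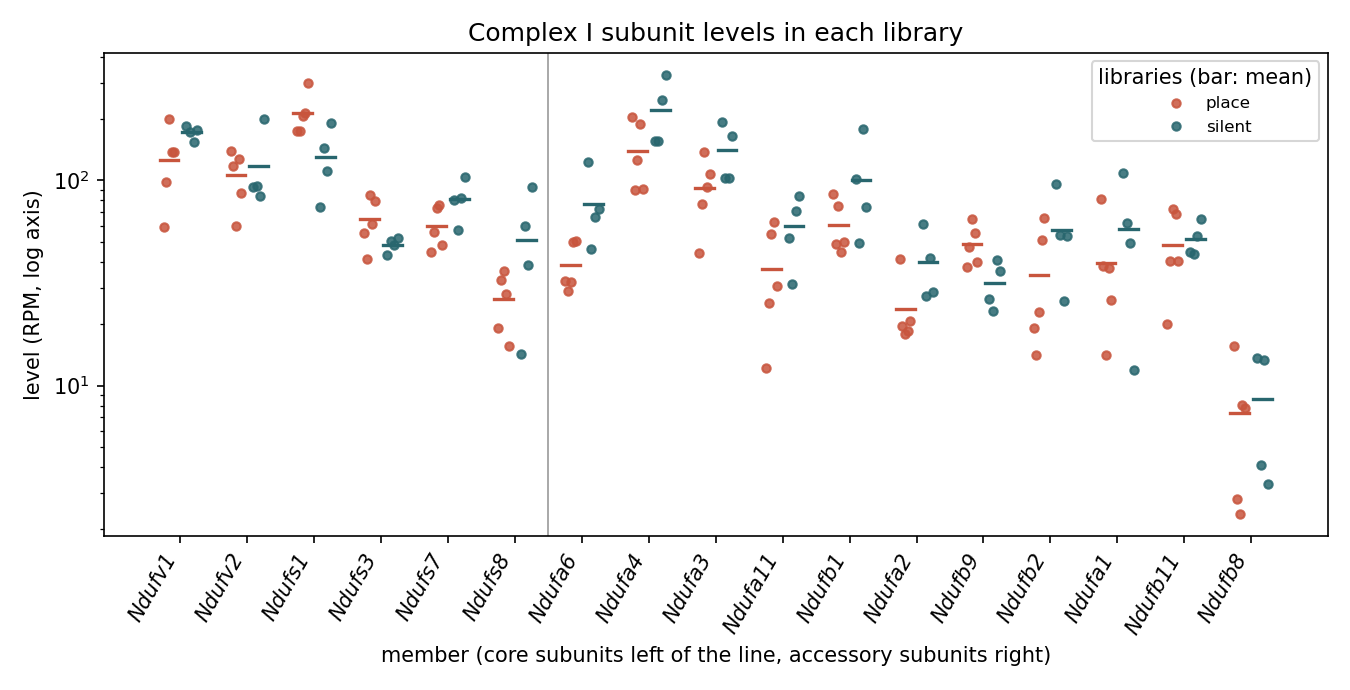
Points give the level (RPM, log axis) of 17 members in each library, place in red and silent in blue, with a bar at the group mean; core subunits are left of the line. Ndufs1 lies higher in most place libraries and Ndufa6 lower, and the points of the groups overlap in every member shown.

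Ndufs1, the largest core subunit, belongs to the N module and carries iron-sulfur clusters. Its level was 174.5, 173.9, 206, 212 and 299 RPM in place replicates 1 to 5 and 73.9, 144, 112 and 191 RPM in silent replicates 1 to 4. Only silent replicate 4 reached into the place range, and silent replicate 1 was the lowest. The mean was 1.64-fold higher in place libraries, with a log2 fold of 0.78 ± 0.32 (SE), a limma p of 0.033 and an adjusted p of 0.861. Ndufs1 took 25.0% to 35.9% of the core RPM in place and 12.8% to 19.7% in silent libraries, ranges that do not overlap; this share was looked at after the levels were seen and was not tested. Exons of Ndufs1 overlap genes on the opposite strand (Eef1b2 and Ino80dos) over 6.16% of their length in GENCODE M21, and whether counting used strand is not given in the sources used here.

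Ndufv1, which binds NADH and the flavin, went the other way. It stood at 59.4, 98.4, 200, 137.4 and 137.0 RPM in place replicates 1 to 5 and at 184, 173, 155 and 177 RPM in silent replicates 1 to 4. The silent libraries lay close together and 4 of the 5 place libraries lay below them, while place replicate 3 was the highest of all 9. The log2 fold was -0.54 ± 0.32 (limma, adjusted p = 0.861) and -0.30 without place replicate 1. Ndufv2, its partner with an iron-sulfur cluster, stood at 60.03 to 140 RPM in place and 84.1 to 199 RPM in silent libraries, with a log2 fold of -0.10 ± 0.37 and silent replicate 4 far above the rest. Over the 8 members of the N module, 7 were negative with a median log2 fold of -0.42, Ndufs1 being the exception, and their sum ran from 530 to 730 RPM in place and from 602 to 862 RPM in silent libraries.

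The Q module holds the ubiquinone site, to which Ndufs7 belongs. Ndufs7, which carries the last cluster before ubiquinone, stood at 44.9, 55.9, 73.1, 75.9 and 48.5 RPM in place replicates 1 to 5 and at 80.2, 57.2, 82.2 and 104 RPM in silent replicates 1 to 4. Only silent replicate 2 lay among the place libraries (log2 fold -0.43 ± 0.33, limma, adjusted p = 0.861). Ndufs8, with iron-sulfur clusters between the N module and the ubiquinone site, stood at 15.5 to 36.1 RPM in place and at 14.3, 59.96, 38.7 and 92.9 RPM in silent replicates 1 to 4. Its silent libraries thus spanned the lowest and the highest level of all 9, and the log2 fold was -0.73 ± 0.61. It was -0.36 without silent replicate 4 and -1.25 without silent replicate 1. Ndufs3, a structural core subunit whose promoter is shown above, stood at 41.6 to 85.2 RPM in place and 43.3 to 52.6 RPM in silent libraries, with a log2 fold of 0.38 ± 0.39. Over the 5 members of the Q module, 3 were negative and 2 positive.

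Of the 9 accessory subunits of the matrix arm, 8 had a negative log2 fold and 1, Ndufa9, a positive one, with a median of -0.44, and 0 passed. Their summed level was 298 to 514 RPM in place and 537 to 642 RPM in silent libraries; these ranges do not overlap, but the sum was looked at after the values were seen and was not tested. Of the 16 members of the arm, core included, 12 were negative with a median log2 fold of -0.42. Ndufa6, a LYR-motif protein that binds an acyl carrier protein, stood at 32.2, 28.9, 32.0, 50.1 and 50.7 RPM in place replicates 1 to 5 and at 124, 46.3, 66.4 and 72.3 RPM in silent replicates 1 to 4. Only silent replicate 2 lay within the place range. The mean was 1.99-fold higher in silent libraries with a log2 fold of -0.93 ± 0.40 (SE), a limma p of 0.0395 and an adjusted p of 0.861. Without the 3 libraries highest in oligodendrocyte markers the log2 fold was -0.48. Ndufa2, an N module subunit with a thioredoxin-like fold, stood at 41.5, 19.5, 17.8, 18.4 and 20.8 RPM in place replicates 1 to 5 and at 61.7, 27.4, 41.8 and 28.7 RPM in silent replicates 1 to 4. Place replicate 1 was the only place library among the silent ones, and the log2 fold was -0.75 ± 0.53 (limma, adjusted p = 0.861).

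The membrane arm had 15 of 20 members negative, with a median log2 fold of -0.23. Ndufa3, a small membrane subunit, had the second highest level per kb, 221 RPM per kb. It stood at 44.3, 76.9, 138, 93.1 and 108 RPM in place replicates 1 to 5 and at 193, 102.9, 103.3 and 165 RPM in silent replicates 1 to 4, with place replicates 3 and 5 among the silent libraries (log2 fold -0.64 ± 0.35, and -0.41 without place replicate 1). Ndufa11, which sits in the membrane arm and whose promoter held the NRF1 pattern, stood at 12.2 to 62.8 RPM in place and 31.4 to 84.1 RPM in silent libraries (log2 fold -0.80 ± 0.50, and -0.46 without place replicate 1). Ndufb1 stood at 44.7 to 85.7 RPM and 49.6 to 177 RPM, with silent replicate 3 the highest (log2 fold -0.60 ± 0.40, and -0.28 without that library). Ndufb2 stood at 14.1 to 65.4 RPM and 26.0 to 95.9 RPM (log2 fold -0.82 ± 0.60, and -0.53 without silent replicate 1). These 4 members lean the same way, with wide overlap. Ndufb9, the LYR-motif partner of an acyl carrier protein in the membrane arm, leaned the other way, at 37.9, 47.3, 64.6, 55.3 and 40.1 RPM in place replicates 1 to 5 and 26.6, 23.2, 41.1 and 36.3 RPM in silent replicates 1 to 4. Its place mean was 1.54-fold higher, with only silent replicate 3 within the place range (log2 fold 0.65 ± 0.46, limma, adjusted p = 0.861). Exons of Ndufb9 overlap another gene model on the same strand over 19.5% of their length, so reads of the 2 cannot be separated by strand.

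Ndufa4 had the highest level per kb of the members, 288 RPM per kb, and is known today as a subunit of cytochrome c oxidase (complex IV), although its name and the rule keep it here. It stood at 204, 89.3, 126, 189 and 90.9 RPM in place replicates 1 to 5 and at 156, 155, 246 and 327 RPM in silent replicates 1 to 4. Place replicates 1 and 4 lay among the silent libraries, and the log2 fold was -0.66 ± 0.34 (limma, adjusted p = 0.861). Without it the summed member level was 2201 ± 284 RPM in place (SD, n = 5) and 2533 ± 196 RPM in silent libraries (SD, n = 4). At the other end, Ndufb8, a membrane arm subunit widely used as a marker of assembled complex I, had the lowest level per kb, 3.69 RPM per kb, at 2.37 to 15.6 RPM in place and 3.32 to 13.7 RPM in silent libraries. The order of levels per kb rests in part on which transcript gives the length. With the shortest in place of the longest CCDS transcript, Ndufb8 stayed last at 11.6 RPM per kb and Ndufa4 first at 389, but Ndufb2 moved from 10.2 RPM per kb (rank 35 of 36) to 98.4 RPM per kb (rank 9).

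Ndufa1 and Ndufb11 are encoded on the X chromosome. Ndufa1, a small membrane subunit needed for assembly, stood at 81.6, 38.4, 14.1, 37.4 and 26.3 RPM in place replicates 1 to 5 and at 109, 61.8, 49.6 and 12.0 RPM in silent replicates 1 to 4. Silent replicate 4 was the lowest and silent replicate 1 the highest of all 9 libraries, so the groups overlap throughout (log2 fold -0.40 ± 0.72). Ndufb11, of the membrane arm, stood at 19.9 to 72.5 RPM in place and 43.9 to 65.2 RPM in silent libraries (log2 fold -0.21 ± 0.46). Place replicate 1, the only place library with Eif2s3y, held the lowest Ndufb11 and the highest place level of Ndufa1.

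Single libraries nearly lacked members that the others held well; the 4 genes that follow were picked after their values were seen. Ndufs6, a zinc-binding subunit of the matrix arm, had 10 reads (0.643 RPM) in place replicate 1 and 0 reads in place replicate 3, which allows at most 0.17 RPM (3 reads, counting error only), but 11.2 to 43.8 RPM in the other 7 libraries. Ndufa9, at the junction of the arms, had 4 reads (0.287 RPM) in silent replicate 1 and 33.7 to 104 RPM in the other 8 libraries. Ndufa8, on the intermembrane space side of the membrane arm, had 27 reads (1.93 RPM) in the same silent library, against 13.5 to 99.8 RPM elsewhere. Ndufs5, also on that side, had 23 reads (1.30 RPM) in place replicate 3 and 3.73 to 17.9 RPM elsewhere. Its near copy Ndufs5-ps had 70 reads (3.96 RPM) in place replicate 3. The log2 folds of Ndufs6 (-2.77 ± 2.11) and Ndufa9 (1.70 ± 1.42) rest on these libraries. Place replicate 3 and silent replicate 1 each held the highest level of 9 members and the lowest of 7, whereas place replicate 4 held the highest of 0 and the lowest of 1. The silent libraries, 4 of the 9, together held the highest level of 23 members and the lowest of 14. The same counts were not taken over all genes. Exons of 15 members overlap another gene in GENCODE M21, in which Ndufb1 was not found under that symbol and so was not counted. In addition, 5 members (Ndufa11, Ndufa12, Ndufb4, Ndufs5 and Ndufs6) have a near copy with a column of its own. Levels of members of either kind are uncertain where reads were split. The largest near copy beside its member was Ndufs5-ps, at 0 to 10.7 RPM.

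**Figure D4:**
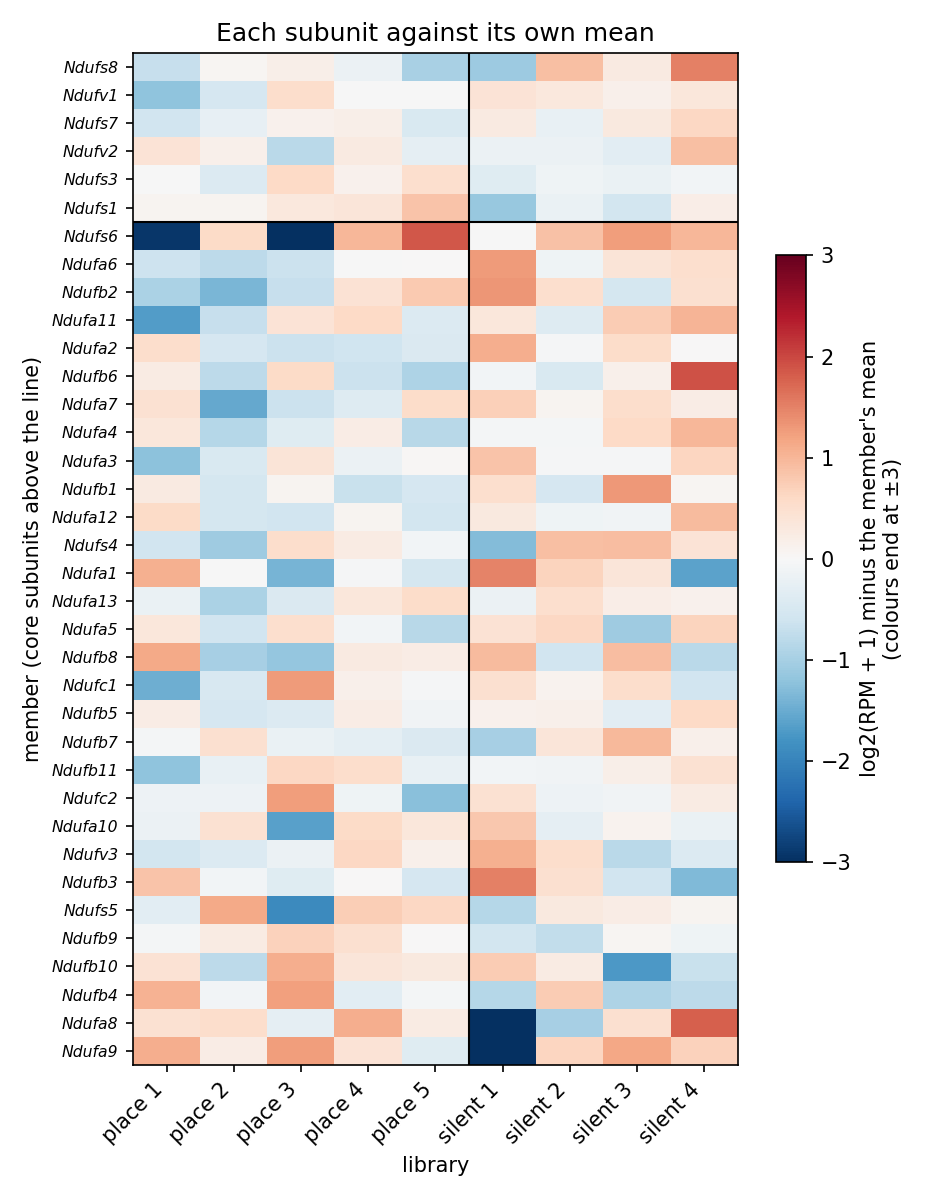
Colours give log2(RPM + 1) of 36 members (rows, core subunits above the line) in each library (columns) minus the mean of that member over the 9 libraries, red above and blue below, with colours ending at 3 and -3. The dark blue cells are Ndufs6 in place replicates 1 and 3 and Ndufa9 and Ndufa8 in silent replicate 1; the other cells show no block shared by all members of a group.

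The core subunits encoded in mitochondrial DNA were low and varied, and the share of reads from mitochondrial genes was 0.0272% to 0.191% in these nuclear libraries. Of the 7, 6 were tested, 5 were positive and 1 negative, and 0 passed. Their sum ran from 66.5 to 609 RPM in place, with the top in place replicate 3, and from 60.3 to 149 RPM in silent libraries. In place replicate 3, which was also the highest in astrocyte markers, mt-Nd1 stood at 273 RPM (12.6 to 123 RPM in the other 8), mt-Nd4 at 148 RPM (1.79 to 53.7 RPM), mt-Nd5 at 72.2 RPM (2.19 to 26.6 RPM) and mt-Nd6 at 65.6 RPM (0.193 to 11.4 RPM). mt-Nd2 stood at 14.4 to 49.3 RPM in place and 5.76 to 35.3 RPM in silent libraries. mt-Nd3 had 283 reads in place replicate 5, 18 and 32 in place replicates 4 and 1, 3 in silent replicate 2 and 0 in the other 5 libraries. mt-Nd4l was listed above 0 only in place replicate 3. The mitochondrial share of place replicate 3 (0.191%) counts these genes too, and it is no separate measure of them.

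Genes that act beside the members were read from the same fit. Ndufab1, the acyl carrier protein held by Ndufa6 and Ndufb9, stood at 61.8 ± 28.8 RPM in place (SD, n = 5) and 75.3 ± 26.6 RPM in silent libraries (SD, n = 4), with a log2 fold of -0.32 ± 0.47. Of 19 assembly factors, which build complex I and do not stay in it, 18 were in the table and tested, 9 were negative and 9 positive with a median log2 fold of 0.13, and 0 passed. Nubpl, which supplies iron-sulfur clusters to complex I, had the smallest p among them. It stood at 21.2, 0.0574, 1.70, 11.9 and 10.1 RPM in place replicates 1 to 5 and at 51.1, 23.2, 28.1 and 48.4 RPM in silent replicates 1 to 4. The groups did not overlap, and the silent mean was 4.19-fold higher. The limma p was 0.0328 and the adjusted p 0.861, so Nubpl did not pass. Ecsit, of an early assembly complex, stood at 137, 66.3, 63.4, 44.7 and 77.2 RPM in place and at 23.1, 21.3, 62.2 and 42.6 RPM in silent libraries, with only silent replicate 3 in the place range (log2 fold 1.11 ± 0.51, limma, adjusted p = 0.861). Ndufaf8, the partner of the assembly factor Ndufaf5, stood at 4.31 to 22.1 RPM in place and at 0 to 7.11 RPM in silent libraries.

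Of 13 regulators of respiratory genes, 12 were tested, 4 were negative and 8 positive with a median log2 fold of 0.27, and 0 passed. Pprc1, a coactivator related to PGC-1α, stood at 5.92 to 37.1 RPM in place and at 0, 15.8, 39.3 and 0 RPM in silent replicates 1 to 4. Sp1, which binds GC boxes, stood at 18.3 to 44.0 RPM in place and at 60.8, 3.86, 0 and 22.5 RPM in silent replicates 1 to 4. Yy1 stood at 2.32 RPM in place replicate 1 and 53.6 to 90.6 RPM in the other place libraries, and at 62.9 to 124 RPM in silent libraries (log2 fold -1.46 ± 0.91, limma, adjusted p = 0.861). All 3 overlapped between the groups, and each rests in part on libraries at or near 0. Of 54 listed subunits of complexes II to V, 40 were found in the table under the symbols used. Of these, 31 were negative and 9 positive, with a median log2 fold of -0.18, and 0 passed. Over all genes tested, 40.1% were negative, the median was 0.22 and 0% passed. At an unadjusted limma p under 0.05, 4 were lower (1.14% of all genes were) and 0 higher (3.86% of all genes were). Their sum ran from 3527 to 4356 RPM in place and from 4034 to 5614 RPM in silent libraries. Whether complex I members differed from these other complexes was not tested.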

How the data were processed

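Nuclear RNA of 9 libraries was analysed from 1 table. The deposited values are a normalized read signal that the authors made; STAR, HTSeq and the GRCm39 build appear in the submitters' processing notes. Versions, annotation, strand setting and normalization tool were not given in the sources used here. In 21396 of the 31052 genes, the deposited signal values divided by a constant of the gene gave whole numbers in all libraries, each value allowed to be off by 0.00051 for rounding in print (37 of 37 members and 15228 of 15232 genes tested, largest distance from a whole number 0.000166 for members and 0.00144 for genes tested). The quotients are the recovered reads behind RPM.

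Libraries were scaled by TMM factors (30% trim of M-values, 5% of A-values), written for this work and so not identical to those of other software. Genes reaching a value of 10 in 4 or more libraries were tested by limma 3.58.1 in R 4.3.3 with an intensity trend on log2(value + 1). The contrast was place minus silent, with no covariate and Benjamini-Hochberg adjustment over 15232 genes. The log2 fold is on the log2(value + 1) scale, where libraries near 0 can move it far from the ratio of group means. Ndufs6 had -2.77 at a place to silent ratio of means of 0.80, and Pprc1 had 4.78 at 1.73. Lengths are of the longest CCDS transcript in GENCODE M21 (GRCm38), taken in place of all merged exons after those proved inflated by retained introns and before levels per kb were computed; Ndufb1 has none. Promoters are from RefSeq. Groups follow the titles and replicate numbers the accession order.

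The members and gene lists were chosen with earlier results of these data known. Named members are the core subunits (1 is not reported here), the 8 other members with the smallest p, Ndufa4, Ndufa1, Ndufb11, the accessory members highest and lowest per kb, the mitochondrially encoded subunits, Ndufab1, and the 3 assembly factors and 3 regulators with the smallest p. Others were named after their values were seen, as were the promoter patterns shown, from 8 searched after other forms had been looked at.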

Additional observations from a re-analysis of the deposited data

Results flagged for a closer look

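In 6 of 74 groups (37 members in place and in silent libraries), the highest library stood further from the next than Dixon's 95% critical value allows. For normally distributed values and a library at either end, chance flags about 1 in 20 groups, or 3.7 of 74. The RPM values were not shown to be normal and all 6 flags are at the high end, so this rate is no test of them. In place replicate 1, Ndufa2 stood at 41.5 RPM (next 20.8 RPM) and Ndufb3 at 84.9 RPM (next 47.1 RPM). In place replicate 3, Ndufc2 stood at 144 RPM (next 55.3 RPM). In silent replicate 2, Ndufb4 stood at 23.1 RPM (next 7.28 RPM), and Ndufb4b, a near copy with a column of its own, had 2 reads (0.1 RPM) there. In silent replicate 4, Ndufb6 stood at 61.7 RPM (next 17.8 RPM) and Ndufv2 at 199 RPM (next 93.8 RPM). Exons of Ndufb6 overlap Smim27 on the opposite strand over 39.0% of their length.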

How the results depend on the processing

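Under all 18 alternatives run, 0 members passed. The fit with Y-linked transcripts as a covariate set place replicate 1 alone against the silent libraries, so only its log2 folds are given. Leaving out 1 library at a time, the median log2 fold of the members ran from -0.38 to -0.18 and the negative members from 24 to 30. Without the 3 libraries highest in oligodendrocyte markers the median was -0.034. Quantile normalization moved the median of all genes from 0.22 to 0.10 and left that of the members at -0.27.

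Of the 17 members named by the rule and reported here, 10 kept their sign throughout and 7 did not, in 16 of 306 values; the cause was not tested. With 1 library left out, Ndufv2 ran from -0.23 to 0.17, Ndufa1 from -1.05 to 0.032, Ndufb11 from -0.38 to 0.066 and Ndufb8 from -0.65 to 0.074. Among members that kept their sign in these fits, Ndufs8 ran from -1.25 to -0.36, Ndufa11 from -1.06 to -0.46, Ndufb1 from -0.88 to -0.28, Ndufb2 from -1.15 to -0.53, Ndufv1 from -0.71 to -0.30 and Ndufa3 from -0.79 to -0.41. With genes detected as a covariate, Ndufb8 was 0.19, Ndufb1 -0.20, Ndufa2 -0.34, Ndufb11 -0.42 and Ndufs8 -1.24. With Y-linked transcripts as a covariate, where the place side is place replicate 1 alone, Ndufv2 was 0.39, Ndufa4 0.0056, Ndufa2 0.18, Ndufa1 0.91 and Ndufb8 1.18. Other members moved further below 0 in that setting: Ndufa11 was -2.15, Ndufa3 -1.57, Ndufv1 -1.48, Ndufb2 -1.39, Ndufb11 -1.32 and Ndufs7 -0.77, while Ndufb1 was -0.028. Without the 3 libraries highest in oligodendrocyte markers, Ndufb2 was 0.21, Ndufb11 0.088 and Ndufb8 0.21. Ndufa6, Ndufa3, Ndufa11 and Ndufv1 were nearer 0, at -0.48, -0.39, -0.31 and -0.28, as were Ndufa4 (-0.63), Ndufs7 (-0.34) and Ndufv2 (-0.020). Further from 0 were Ndufs1 (1.08), Ndufs3 (0.57), Ndufs8 (-0.96), Ndufa2 (-0.90), Ndufb1 (-0.88), Ndufa1 (-0.47) and, slightly, Ndufb9 (0.650, from 0.646).

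The planned edgeR and DESeq2 fits were not run, and voom was the only fit to the recovered reads. No paired analysis was possible because the labels give the libraries no shared replicate numbers. A median of 975 reads stood behind a member in a library, and 5 members had a library under 5 RPM, where their values rest on few reads. Why they were low there was not tested.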
